A study of Mus musculus with 3 samples.

Results

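The genes described here encode 9 enzymes and lipid droplet proteins of sebum synthesis, Scd1, Scd3, Fa2h, Far2, Elovl3, Elovl4, Cers4, Mgll and Cidea, out of 31053 genes measured in single cells of the mouse anorectal junction. They were found by gene symbol, and all 9 were in the deposited gene table. Each was followed across the authors' 29 clusters and 14 cell type names, with the 10 keratinocyte clusters kept apart. The tissue was distal colon and anus of C57Bl/6 mice that were bought at 6 weeks of age. The day 0 library came from untreated mice with normal histology. The other libraries came from mice that drank 3% dextran sulfate sodium (DSS), which damages the colon epithelium, for 6 days; they were dissected on day 7, with colitis, or on day 42, after recovery. Tissue of 5 mice was pooled for each day and made into 1 library of 3' tags, so there are no replicates, no test between days was possible, and variation between mice is not measured.

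Sebaceous glands are lipid-secreting appendages of hair follicles and of modified glands such as those around the anus. A sebocyte leaves the dividing outer layer of the gland, fills with lipid droplets and bursts to release sebum, which in mice is rich in wax esters, sterol esters and triglycerides. Stearoyl-CoA desaturases put a double bond into saturated fatty acids, elongases lengthen them, fatty acyl-CoA reductases turn them into the alcohols of wax esters, and ceramide synthases and fatty acid 2-hydroxylase build sphingolipids. Monoacylglycerol lipase breaks down monoglycerides, and Cidea sits on lipid droplets and promotes their growth.

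The day 0 library held 11037 cells, the day 7 library 14376 and the day 42 library 11667, with 72258639 to 151886649 counts of unique molecular identifiers (UMIs, each taken as 1 captured molecule) and medians of 5708 to 6217.5 UMIs per cell. Keratinocytes numbered 3316, 9035 and 7970. Mitochondrial UMIs exceeded 20% in 32.1%, 14.9% and 12.97% of the cells. Of 36941 distinct cell barcodes, 139 occurred in more than 1 library, of which 3, 16 and 1 cells lay in cluster 13. Levels are given as counts per 1e6 UMIs (CPM), from UMIs summed over the cells of a cluster or cell type in 1 library, and 95% intervals are exact Poisson intervals that cover counting error only.

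The 9 genes had their highest level in the authors' keratinocyte cluster 13 on all 3 days, among clusters and cell types with at least 50 cells. Cluster 13 held 218 cells on day 0, 1138 on day 7 and 106 on day 42, which is 6.57%, 12.6% and 1.33% of the keratinocytes. Cells had passed dead-cell removal and a 40 µm filter, and the part of either in these shares was not tested. Because the clusters were made from all genes of these cells, the place of the 9 genes in cluster 13 is a description and no test. All 8 listed sebocyte markers were detected in cluster 13 on each day, and their summed level was 6960 CPM on day 0, 7013 on day 7 and 4999 on day 42. The weakest were Mc5r, with 1.27, 2.28 and 3.71 CPM, and Awat2, with 16.5, 22.0 and 3.71 CPM. Of the 8 markers, Mgst1, a microsomal glutathione transferase, had 3711, 3054 and 3065 CPM in cluster 13 and Soat1, which makes sterol esters, 633, 975 and 439 CPM. Krt79, a keratin of gland ducts and sebocytes, had 1268, 1676 and 719 CPM in cluster 13 and 3219, 3112 and 2781 CPM in cluster 8. The adipocyte markers Adipoq and Lep were at 0 on all days in cluster 13. The 4 listed neutrophil markers summed to 0.845 CPM on day 0, 1106 CPM on day 7 and 208 CPM on day 42 in cluster 13, and the 4 secretory colonocyte markers to 20.7, 6.43 and 423 CPM. Of the neutrophil list, S100a8 and S100a9 had 479 and 516 CPM in cluster 13 on day 7, beside 1192 and 1362 CPM in cluster 4. Of the 7 listed adipocyte genes, 1 was above 20 CPM in cluster 13 on each day, Retn, which encodes the hormone resistin, with 98.4, 312 and 89.0 CPM.

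**Figure D1:**
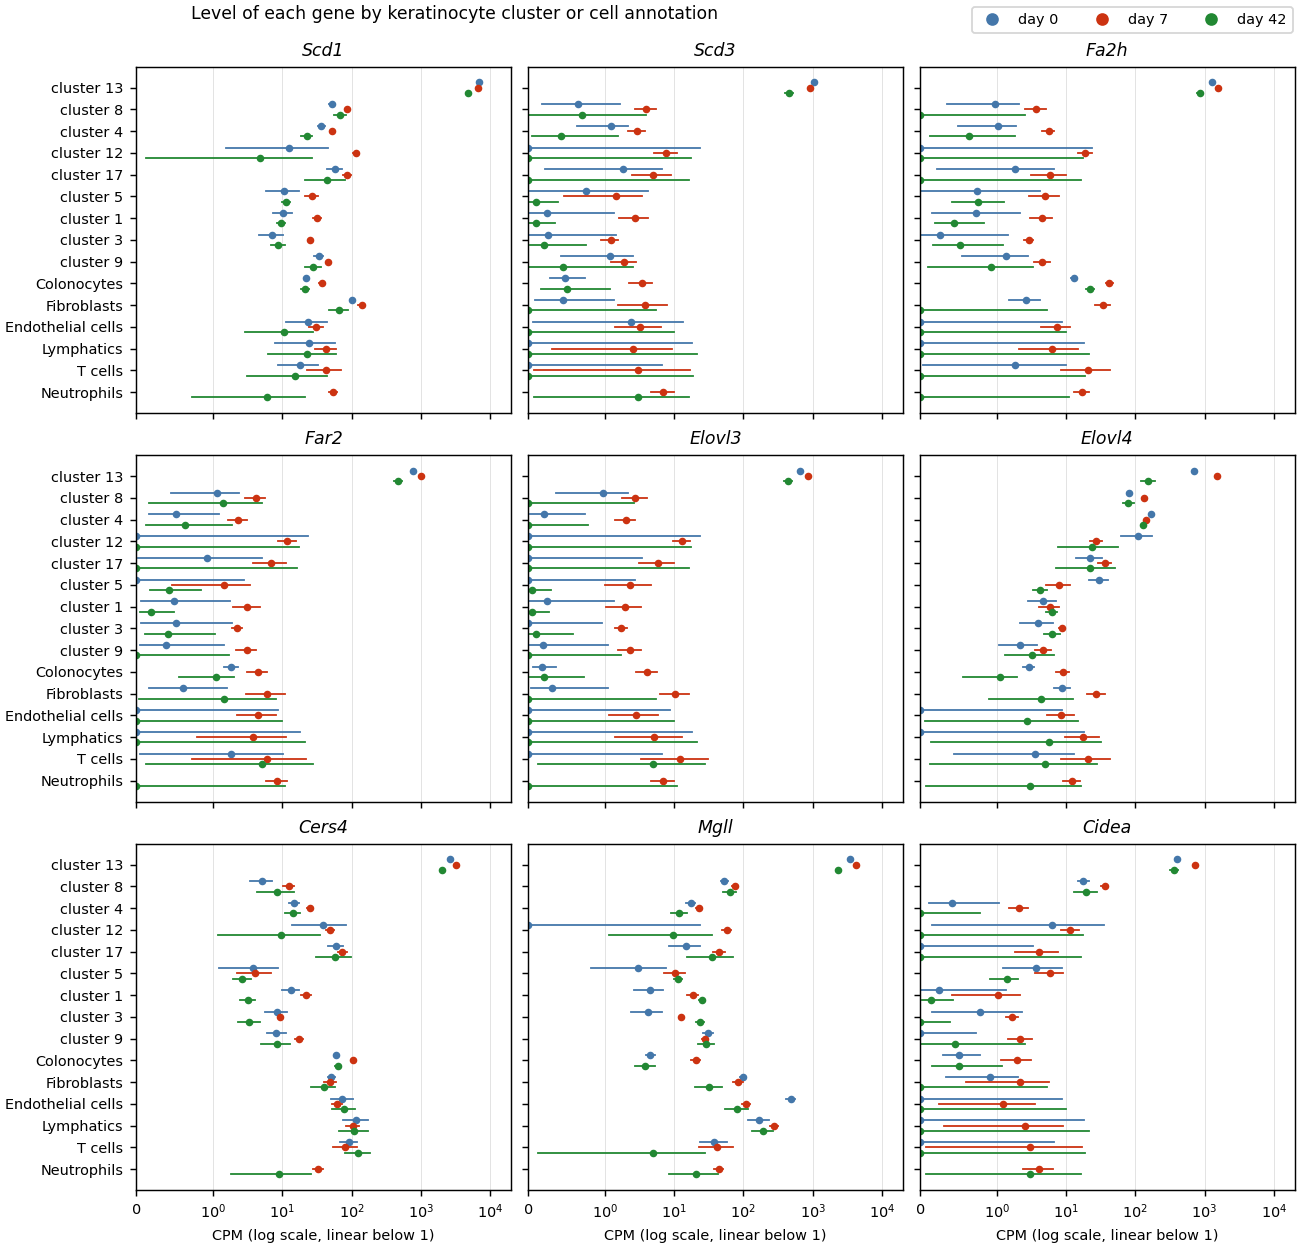
Level of each of the 9 genes (CPM, log axis that is linear below 1) in 9 keratinocyte clusters and 6 other cell types, for day 0 (blue), day 7 (red) and day 42 (green). Points are summed UMIs of 1 library and bars are 95% Poisson intervals; units with fewer than 50 cells are left out. Cluster 13 has the highest level in each panel, and its interval overlaps that of the next unit only for Elovl4 on day 42 (154 CPM beside 131 CPM in cluster 4).

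Of the desaturases, Scd1 had 6919 CPM in cluster 13 on day 0 (95% interval 6813 to 7026), 6672 CPM on day 7 (6631 to 6714) and 4832 CPM on day 42 (4648 to 5021). The next level on day 0 was that of muscle-like cells, 127 CPM, followed by fibroblasts, 103 CPM. Scd3 had 1036 CPM (995 to 1078), 911 CPM (896 to 927) and 456 CPM (401 to 517) in cluster 13. Outside it, Scd3 reached 12.3 CPM in enteroendocrine cells on day 0 and lay below 10 CPM in every other unit of at least 50 cells on every day. Scd1 was thus also measured in stromal cells, while Scd3 was measured almost wholly in cluster 13, which held 97.5%, 97.4% and 93.9% of its UMIs in the library. Both genes lie on chromosome 19 (GRCm38), Scd1 (ENSMUSG00000037071) at 44394455 to 44407879 on the minus strand and Scd3 (ENSMUSG00000025202) at 44203269 to 44244016 on the plus strand, with Scd2 and Scd4 between them. As the copies are similar, their transcripts were compared: in the last 600 bases, where 3' tags fall, 0 of 551 words of 50 bases in Scd1 or in Scd3 occurred in another Scd transcript.

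The sphingolipid enzymes Fa2h and Cers4 were also high in cluster 13 and had further sources. Fa2h (ENSMUSG00000033579; chromosome 8, 111345135 to 111393824) had 1262 CPM on day 0 (1218 to 1309), 1555 on day 7 (1535 to 1576) and 858 on day 42 (782 to 940) in cluster 13. Colonocytes came next on every day, with 13.1 CPM (11.96 to 14.2), 42.3 CPM (38.1 to 46.9) and 22.4 CPM (19.6 to 25.6). Cers4 (ENSMUSG00000008206; chromosome 8, 4493026 to 4531680) had 2619 CPM (2554 to 2685), 3240 CPM (3212 to 3270) and 2010 CPM (1892 to 2133) in cluster 13. Other cell types held it too: T cells had 92.3, 81.4 and 125 CPM, lymphatic cells 117, 104 and 109 CPM, and colonocytes 59.0, 105 and 63.3 CPM. On day 0, 32.1% of all Cers4 UMIs lay in cells that are not keratinocytes.

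Far2, a reductase that supplies fatty alcohols, and Elovl3, an elongase of saturated and monounsaturated chains, were nearly restricted to cluster 13. Far2 (ENSMUSG00000030303; chromosome 6, 148047259 to 148182758) had 778 CPM on day 0 (743 to 815), 990 CPM on day 7 (974 to 1006) and 467 CPM on day 42 (411 to 529). Elovl3 (ENSMUSG00000038754; chromosome 19, 46131897 to 46135694) had 650 CPM (618 to 683), 862 CPM (847 to 877) and 443 CPM (389 to 503). On day 0 no other unit exceeded 3.52 CPM for Far2 or 0.97 CPM for Elovl3. For Elovl3 the next unit was cluster 8 on day 0 at 0.97 CPM (0.36 to 2.12), cluster 12 on day 7 at 13.04 CPM (9.68 to 17.2) and T cells on day 42 at 5.02 CPM from 1 UMI (0.13 to 27.9). In the annotation, 6 of the 9 genes are overlapped by genes on the opposite strand: Far2 by 3 (Far2os1, Far2os2 and Ergic2), Cers4 and Mgll by 2 each, and Elovl3 (by Pitx3), Scd3 and Cidea by 1 each. Mgll is also overlapped by 3 genes on its own strand. These overlaps are of whole gene spans, introns included. The counting strand is not given in the sources used here, and the part of the overlapping genes in these counts was not tested.

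Elovl4 (ENSMUSG00000032262; chromosome 9, 83778692 to 83806277), which makes the very long chains of skin barrier lipids, followed another pattern. In cluster 13 it had 707 CPM on day 0 (673 to 741), 1501 CPM on day 7 (1482 to 1521) and 154 CPM on day 42 (123 to 191). Cluster 4 came next on each day, with 171 CPM (162 to 179), 144 CPM (139 to 150) and 131 CPM (121 to 142). Cluster 8, the cluster with the highest Krt79, had 81.7 CPM (74.7 to 89.1), 135 CPM (127 to 142) and 79.5 CPM (65.5 to 95.6). Cluster 12 had 108 CPM on day 0 from 51 cells (62.8 to 173) and 27.1 and 23.9 CPM later. On day 42 the interval of cluster 13 overlapped that of cluster 4, so their order cannot be told from these counts. The intervals were apart on days 0 and 7 but leave out variation between cells. On day 0, 10 cells held 99.1% of the cluster 13 UMIs, and without them cluster 13 had 6.82 CPM, below cluster 4. The day 0 order thus rests on these cells. On day 7 cluster 13 had 926 CPM without its 10 richest cells. The share of the library's Elovl4 UMIs that lay in cluster 13 was 40.2% on day 0, 81.4% on day 7 and 7.33% on day 42.

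Mgll (ENSMUSG00000033174; chromosome 6, 88724412 to 88828360) had 3516 CPM on day 0 (3441 to 3592), 4164 CPM on day 7 (4132 to 4197) and 2340 CPM on day 42 (2213 to 2473) in cluster 13. Endothelial cells had 482 CPM on day 0 (418 to 553), 109 CPM on day 7 (96.1 to 123) and 80.6 CPM on day 42 (54.4 to 115), from 100, 312 and 122 cells. Lymphatic cells had 166 CPM (115 to 233), 279 CPM (244 to 319) and 190 CPM (131 to 267), with intervals that overlap between days 7 and 42. The level in endothelial cells was thus highest on day 0, with an interval apart from those of the other days. These intervals leave out variation between mice and libraries. On day 7 and day 42 against day 0, 5.14% and 5.73% of the genes tested in endothelial cells were past a log2 ratio of -1. In keratinocyte cluster 1 Mgll had 4.41, 18.6 and 25.1 CPM, and in cluster 3, which had the highest summed level of 4 dividing-cell markers on each day, it had 4.16, 12.7 and 23.7 CPM. These were the only keratinocyte clusters in which any of the 9 genes was past a log2 ratio of 1 upwards on day 42 against day 0, beside 2.46% of the genes tested in cluster 1 and 1.36% in cluster 3.

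Cidea (ENSMUSG00000024526) had 399 CPM in cluster 13 on day 0 (374 to 425), 724 CPM on day 7 (710 to 737) and 363 CPM on day 42 (314 to 418). Its next unit was cluster 8 on each day, at 17.9 CPM (14.7 to 21.5), 36.0 CPM (32.3 to 40.1) and 19.7 CPM (13.1 to 28.5). Cells with a Cidea UMI made up 9.09%, 17.2% and 5.77% of cluster 8, at median depths of 7105, 8743 and 3579.5 UMIs. In T cells, where no Cidea is expected, they made up 0% on day 0, 0.847% on day 7 and 0% on day 42, with exact upper 95% limits of 1.67%, 4.63% and 3.00%, at 1393 to 2260 UMIs. These limits hold for cells with a UMI at that lower depth. After thinning to 1000 UMIs the shares were 1.29%, 3.03% and 2.51% in cluster 8 and 0% in T cells, with exact upper 95% limits of 1.87%, 3.36% and 4.02%, so a difference between these shares was not detectable at equal depth.

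Shares of cells with a UMI in cluster 13 also set the genes apart. Scd1 was detected in 81.7% of its cells on day 0 (exact Clopper-Pearson 95% interval 75.9 to 86.6), 93.5% on day 7 (91.9 to 94.9) and 62.3% on day 42 (52.3 to 71.5). Elovl4 was detected in 9.63% (6.06 to 14.3), 23.2% (20.8 to 25.8) and 4.72% (1.55 to 10.7). The day 42 cells were shallower, with a median of 4299.5 UMIs against 9114.5 and 11071.5, so each cell was also thinned to 1000 UMIs. Scd1 was then detected in 49.8%, 69.1% and 44.1%, Mgll in 40.0%, 58.3% and 33.3%, and Elovl4 in 4.19%, 12.5% and 3.92%. In T cells thinned the same way, Scd1 was detected in 3.59%, 7.41% and 2.22%. All 9 genes kept their highest thinned share on day 7, while the thinned intervals of day 0 and day 42 overlapped for each of the 9. These intervals treat the cells of a pooled library as independent and leave out variation between mice.

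The promoters of genes that were high together in cluster 13 were read from RefSeq (GRCm38.p6), which gave 6 promoters for 5 of the 9 genes, Mgll, Far2, Cers4, Elovl4 and Scd3; Scd1, Fa2h, Elovl3 and Cidea were not among them. Each runs from 250 bases before to 50 bases after a start site, 5′ to 3′ on the gene's strand, and capitals mark motif matches on either strand. Elovl4 is shown as the gene with the separate pattern, Mgll as the other gene with an E-box, and Scd3 as a gene held almost wholly by cluster 13.
Elovl4, chr9:83806256-83806555, minus strand: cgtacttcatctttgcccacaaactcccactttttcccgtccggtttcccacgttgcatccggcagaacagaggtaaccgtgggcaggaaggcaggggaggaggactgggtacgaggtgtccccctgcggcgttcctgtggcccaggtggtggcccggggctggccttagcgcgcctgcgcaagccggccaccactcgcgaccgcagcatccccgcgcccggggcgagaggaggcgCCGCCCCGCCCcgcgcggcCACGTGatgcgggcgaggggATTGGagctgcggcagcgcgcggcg
Mgll, chr6:88724162-88724461, plus strand: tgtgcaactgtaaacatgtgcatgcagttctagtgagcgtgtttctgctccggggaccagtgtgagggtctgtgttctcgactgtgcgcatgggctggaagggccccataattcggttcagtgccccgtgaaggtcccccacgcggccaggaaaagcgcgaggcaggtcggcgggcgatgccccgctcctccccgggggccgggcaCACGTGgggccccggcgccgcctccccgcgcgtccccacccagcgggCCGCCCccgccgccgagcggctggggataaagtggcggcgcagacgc
Scd3, chr19:44203038-44203337, plus strand: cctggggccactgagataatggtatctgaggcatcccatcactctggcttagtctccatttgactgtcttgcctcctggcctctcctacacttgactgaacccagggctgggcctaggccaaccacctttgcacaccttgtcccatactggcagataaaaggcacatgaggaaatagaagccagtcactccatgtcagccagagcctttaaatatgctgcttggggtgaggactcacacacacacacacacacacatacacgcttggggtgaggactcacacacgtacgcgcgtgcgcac

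The motifs searched were the TATA box (TATAAA), the CCAAT box (CCAAT), the E-box (CACGTG), the GC box (GGGCGG), the nuclear receptor core site (AGGTCA), the direct repeats DR1 and DR4 of that core, and a sterol element (TCACNCCAC); a direct repeat also counts as a core site. An E-box was found in the promoters of Elovl4 and of Mgll, and 7.15% of the 32851 promoters of the table hold one. A GC box was found in each of the 6 promoters except that of Scd3, and 35.7% of all promoters hold one. The CCAAT box, held by 37.4% of all promoters, was found for Elovl4, and Scd3 matched none of the 8 motifs. In GC content, the Scd3 promoter stood at 54% and those of Elovl4 and Mgll at 71% and 70%. The search describes letters in these windows and no binding was measured.

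Over all keratinocytes, the genes were higher on day 7 than on day 0 and far lower on day 42. Scd1 had 512 CPM on day 0 (504 to 519), 813 CPM on day 7 (808 to 818) and 58.3 CPM on day 42 (56.4 to 60.3). Fa2h had 88.8, 185 and 8.53 CPM, Cidea 31.4, 88.7 and 4.37 CPM, and Scd3 72.9, 108 and 4.40 CPM. Day 7 was the highest and day 42 the lowest for all 9 genes. As a log2 ratio with 10 CPM added to each level, day 7 against day 0 lay between 0.51 for Scd3 and 1.25 for Cidea, with a median of 0.98 beside a median of -0.03 over the 10088 genes that reached 5 CPM in one of the libraries or both. Elovl3 (1.02) and Cidea were at or past a ratio of 1, which makes 2 of the 9 genes, and 1.15% of the genes tested were that much higher. The count turns on small differences, since Fa2h, Far2 and Cers4 each had 0.98, and it ran from 0 to 9 over the alternative settings. The 9 came from omitting the 10 cells richest in each gene's UMIs, which bears on no difference between days. The 0 came from equal weight to clusters and from omitting cluster 13. The latter left Scd3, Fa2h, Far2, Elovl3 and Cidea below the 10 CPM added to each level. Day 42 against day 0 lay between -2.93 for Scd1 and -1.53 for Cidea, all 9 past -1, and 1.99% of the 10114 genes tested were that much lower. On day 42 against day 7 all 9 were also past -1, from -3.60 for Cers4 to -2.78 for Cidea, beside 1.43% of the genes tested. The first and second of these comparisons share the day 0 library.

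The size of the difference on day 42 moved with the weight given to each cluster. Without cluster 13, Elovl4 was at -1.57 (17.7 CPM against 72.1 CPM) and Scd1 at -0.83 (13.6 CPM against 32.1 CPM), while Cers4 had -0.60. Scd3, Fa2h, Far2 and Elovl3 had less than 1 CPM there on both days, so the 10 CPM added to each level keep their ratios near 0 whatever their fold. Within single clusters the ratio of Elovl4 was -0.36 in cluster 4, -0.04 in cluster 8, -1.49 in cluster 5 (4.20 CPM against 29.9 CPM) and -1.80 in cluster 12 (23.9 CPM against 108 CPM, from 5 and 17 UMIs). In clusters 1, 3, 9 and 17 it lay between 0.01 and 0.24, at levels up to 22.1 CPM. With equal weight for the authors' clusters, 2 of the 9 genes were past -1, Scd3 at -1.05 and Elovl4 at -1.23, and the median was -0.50. On day 7, no gene was past 1 with equal weight, and Scd3 turned to -0.14. Elovl4 without cluster 13 turned to -0.66 on day 7 (42.1 CPM against 72.1 CPM).

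**Figure D2:**
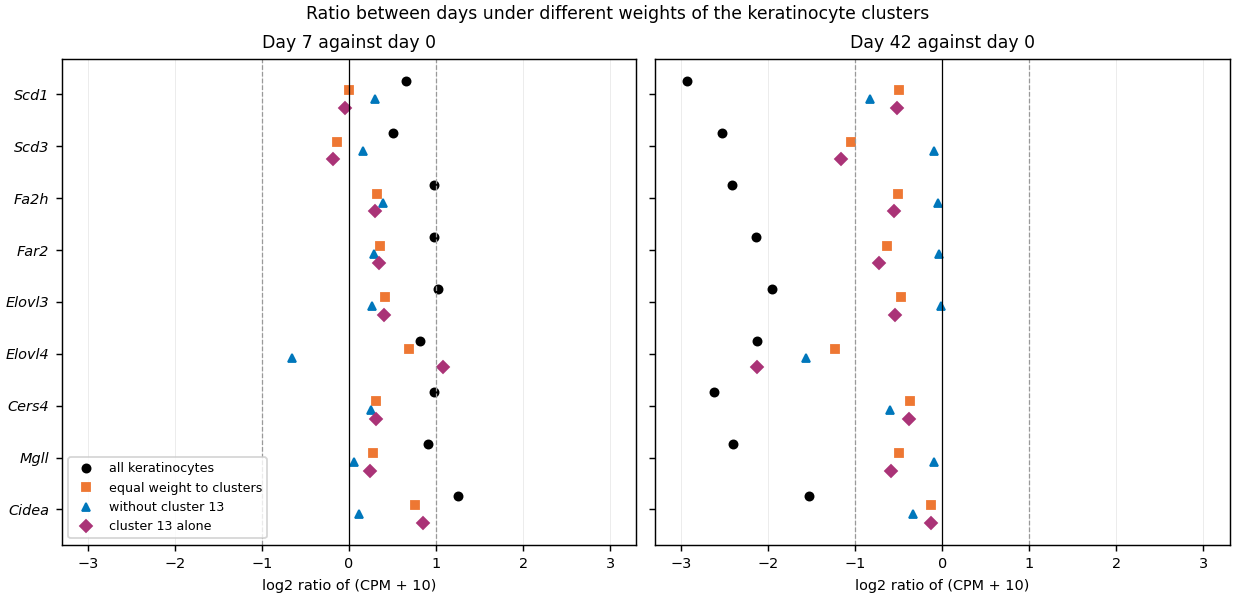
Log2 ratio of (CPM + 10) for each of the 9 genes on day 7 (left) and day 42 (right) against day 0. Black circles pool all keratinocytes, orange squares give equal weight to the authors' clusters, blue triangles leave out cluster 13 and purple diamonds are cluster 13 alone; dashed lines mark ratios of -1 and 1. On day 42 the black circles lie between -2.93 and -1.53, and all but 1 of the blue triangles lie above -1, with those of Scd3, Fa2h, Far2 and Elovl3 resting on levels below 1 CPM.

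Within cluster 13, the log2 ratios between days were closer to 0 than over all keratinocytes for each of the 9 genes except Elovl4, whose ratios there were as large or larger. Elovl4 was the only gene of the 9 at or past 1 on day 7 against day 0, with 1.08, or 2.12-fold (95% counting interval 2.02 to 2.23); 0.786% of the 9672 genes tested were that much higher. Cidea followed with 0.84, or 1.81-fold (1.70 to 1.94), while Scd1 had -0.05 and Scd3 -0.18. The gene past 1 changed with the weight of deep cells: after thinning each cell to 1000 UMIs, Cidea was the only gene past 1, at 1.17, and Elovl4 had 0.67, and with the mean of CPM per cell Cidea had 1.02 and Elovl4 0.65. Scd1 and Scd3 turned above 0 in the same settings, to 0.16 and 0.20 after thinning and to 0.22 and 0.04 with the mean per cell. The median of the 9 was 0.31. Listed neutrophil markers moved with this comparison, S100a8 from 0 to 479 CPM and S100a9 from 0.845 to 516 CPM in cluster 13. This was not particular to cluster 13: on day 7 they had 1192 and 1362 CPM in cluster 4 and 437 and 533 CPM in cluster 8. Csf3r, from the same list, had 3.68 CPM in cluster 13 on day 7. The part of these markers was not tested. On day 42 against day 0 all 9 genes were below 0, with a median of -0.55 beside -0.10 over the 9880 genes tested. Markers of secretory colonocytes were higher in the same cluster, with Zg16 at 221 CPM against 5.07 CPM, Tff3 at 159 CPM against 4.65 CPM and Muc2 at 27.8 CPM against 3.80 CPM, and their part in the lower levels of the 9 genes was not tested. Past -1 were Scd3 with -1.17, or 2.27-fold lower, and Elovl4 with -2.13, or 4.59-fold lower, which makes 2 of the 9 genes beside 1.32% of the genes tested. The Scd3 ratio was -0.99 with the filter on cells (at least 1000 UMIs and 500 genes, at most 20% mitochondrial) and -0.67 after thinning. Cidea, at -0.13, had a fold of 0.911 whose interval of 0.777 to 1.06 held 1, and it was 0.02 under median-of-ratios scaling. On day 42 against day 7, Far2 (-1.07) and Elovl4 (-3.21) were past -1, beside 1.96% of the genes tested.

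These ratios rest on few cells. The tenth of the cluster 13 cells with the highest counts of a gene, 22, 114 and 11 cells on the 3 days, held 62.2%, 65.4% and 77.9% of its UMIs for Scd1, 88.1%, 90.2% and 95.1% for Scd3, and 100%, 98.8% and 100% for Elovl4. Without the 10 cells richest in Elovl4 UMIs on each day, its day 7 ratio against day 0 was 5.80 (926 against 6.82 CPM). Those 10 are a larger share of 218 cells than of 1138. The counting interval of the Elovl4 fold does not cover this spread between cells. Depth also differed: cluster 13 cells had median UMIs of 9114.5, 11071.5 and 4299.5.

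On day 7 the genes were measured at low level in every unit of at least 50 cells. None of the 153 gene and unit pairs outside cluster 13 was at 0 UMIs on day 7, against 34 of 162 on day 0 and 41 of 144 on day 42. Zeros also depend on the UMIs sampled, and the day 7 library held most, 151886649. Lymphatic cells, endothelial cells and cluster 12 had 63, 100 and 51 cells on day 0 and 190, 312 and 1668 on day 7. The part of sampling in the zeros was not tested. The UMIs of the 9 genes made up 610 CPM of the whole library on day 0, 2169 CPM on day 7 and 157 CPM on day 42. In neutrophils on day 7, which should lack these genes, each of the 9 stood at 0.56% to 1.09% of its level in cluster 13 of the same library, Scd1 at 53.6 CPM and Far2 at 8.33 CPM. In cluster 12 on day 7, where 5 of the 9 genes were past 1 against day 0 beside 16% of the genes tested, the 9 genes stood at 0.83% to 1.81% of the cluster 13 level. In cluster 1 the day 7 ratio of Scd1 was 1.05, beside 0.747% of genes that much higher, with 32.1 CPM against 10.3 CPM, and these levels were below that of neutrophils. Free RNA is known to reach droplets of other cells, and its part in the day 7 values outside cluster 13 was not tested. Above that range on day 7 were, among others, Elovl4 in clusters 4 (9.59%) and 8 (8.97%), Cidea in cluster 8 (4.98%), Mgll in lymphatic (6.71%) and endothelial cells (2.61%), and Cers4 (3.25%) and Fa2h (2.72%) in colonocytes.

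The cells of cluster 13 differed from each other in how many of the 9 genes they held. After thinning to 1000 UMIs, 5 to 9 of the genes were detected in 48 of 215 cells on day 0 (22.3%, 16.9 to 28.5), in 379 of 1048 on day 7 (36.2%, 33.2 to 39.2) and in 19 of 102 on day 42 (18.6%, 11.6 to 27.6). At most 1 was detected in 56.7%, 34.4% and 62.7%. Cells with 5 or more of the genes were found outside cluster 13 only on day 7: 5 fibroblasts and 1 cell each of cluster 17, macrophages and cells of unknown type. The ranges of 0 or 1, 2 to 4, and 5 to 9 genes were chosen after these values were seen. Levels within them come from the UMIs that the thinning had not drawn, and a rise of the 9 genes over the ranges is built into them.

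The cells in the range of 5 to 9 genes were chosen by these same genes, so likeness of their levels between days is in part built in and is given as a description. In this range Scd1 had 14483 CPM on day 0, 12854 on day 7 and 14551 on day 42, Mgll 7859, 8352 and 7565 CPM, Fa2h 2914, 3264 and 2870 CPM, and Cers4 5420, 6235 and 6174 CPM. Elovl4 ranged more widely, with 1746, 3286 and 536 CPM, and Scd3 had 2556, 1957 and 1500 CPM. Genes that the ranges did not use moved along them: Krt5, a keratin of basal cells, had 925, 222 and 37.5 CPM from the lowest to the highest range on day 0, and Mki67, a marker of dividing cells, had 154, 7.92 and 4.29 CPM. Of the other listed basal markers, Itga6, an integrin, had 247, 97.0 and 23.6 CPM on day 0 and Col17a1, a hemidesmosome collagen, 177, 49.5 and 2.14 CPM, while Krt14, a basal keratin, had 2605, 1846 and 1991 CPM and so did not keep to that order. In the other direction, Soat1 had 17.2, 527 and 1300 CPM on day 0, Fasn, the fatty acid synthase, 56.0, 507 and 1438 CPM, and Fabp5, a fatty acid carrier of the epidermis, 795, 10548 and 21923 CPM. Days 7 and 42 had the same order for Krt5, Soat1, Fasn and Fabp5; on day 42 no Mki67 UMI was counted in the upper ranges, which held 19 cells each. Median depth also moved, with 7787, 10135 and 21110 UMIs per cell over the ranges on day 0, 13381.5, 5340 and 20193 on day 7 and 4380.5, 3210 and 9556 on day 42. It was thus highest in the top range on each day but lowest in the middle range on days 7 and 42, and its part was not tested.

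**Figure D3:**
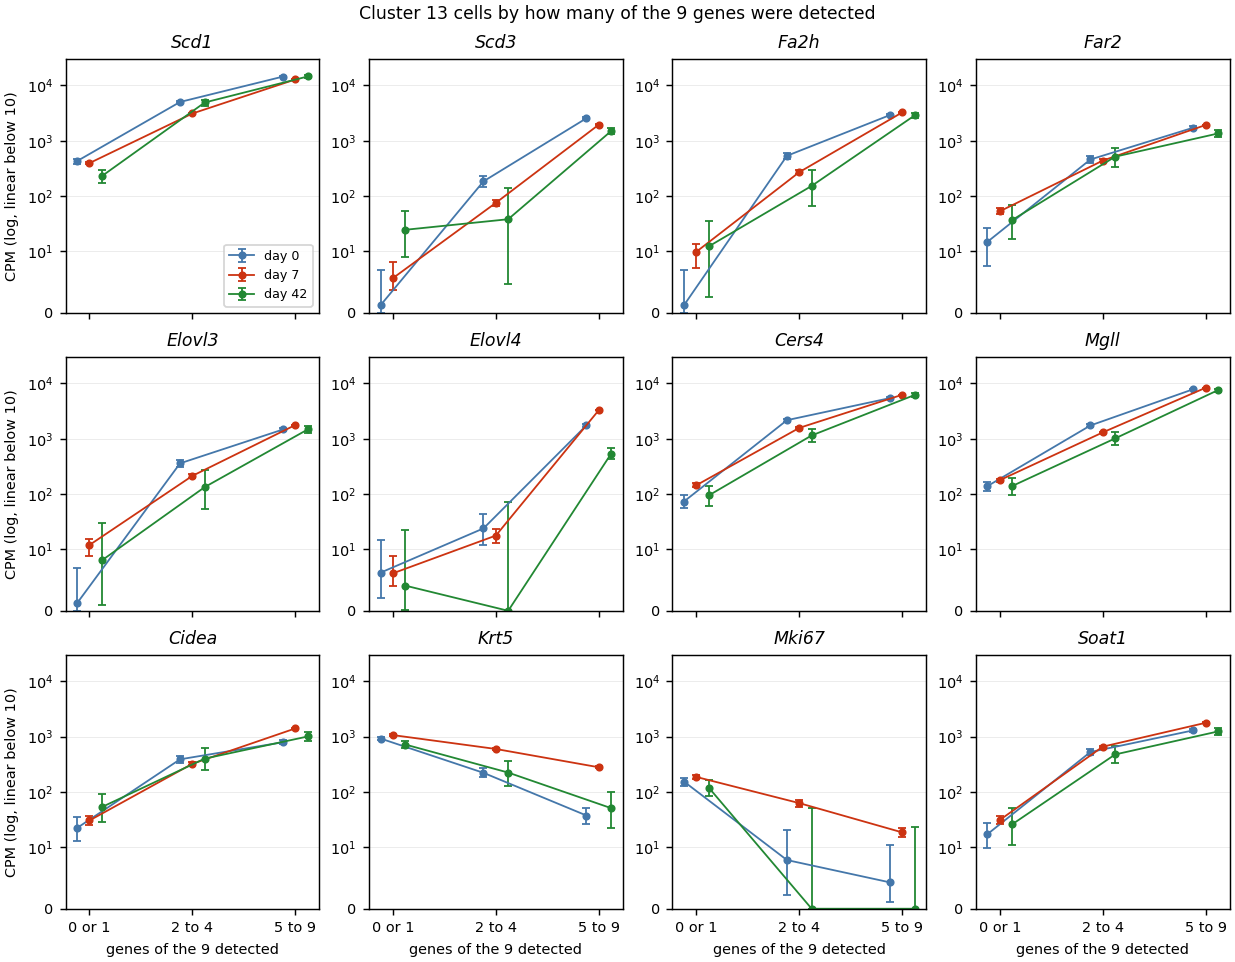
Levels (CPM, log axis that is linear below 10) in cluster 13 cells grouped by how many of the 9 genes were detected after thinning to 1000 UMIs, for day 0 (blue), day 7 (red) and day 42 (green), with 95% Poisson intervals. The last 3 panels are genes outside the 9. Krt5 goes down from left to right and Soat1 goes up, to 1300 CPM on day 0, 1780 on day 7 and 1242 on day 42. Mki67 goes down over the ranges on day 0, and on day 42 no UMI of it was counted in the upper ranges.

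Elovl4 was held by a small part of the cluster 13 cells. Of 218 cells on day 0, 197 had no Elovl4 UMI, 12 had 1 to 9 and 9 had 10 or more; on day 7 these numbers were 874, 171 and 93 of 1138 cells, and on day 42 they were 101, 3 and 2 of 106 cells. The cells with 10 or more held 98.8%, 98.0% and 96.4% of the cluster's Elovl4 UMIs, with up to 664, 1197 and 53 UMIs in a cell. In cluster 4 more cells held the gene, without the very high counts: 38.7% of its cells on day 0 had an Elovl4 UMI, with a highest count of 49. The median among cells with an Elovl4 UMI was 3.5 UMIs in cluster 4 and 3 in cluster 13. Over cells of cluster 13, Pearson's r of log2(CPM + 10) between 2 of the other 8 genes had a median of 0.75 on day 0, 0.70 on day 7 and 0.71 on day 42, and for pairs with Elovl4 0.34, 0.44 and 0.24. These cells share their library and differ in depth, so the correlations are descriptions.

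The cells with 10 or more Elovl4 UMIs were set beside the other cluster 13 cells with 5 to 9 of the genes, a split and a set of genes chosen after the values were seen. Awat1, an acyltransferase that joins fatty alcohols and acids into wax esters, had 693 CPM against 11.7 CPM on day 0, 836 against 23.1 on day 7 and 1076 against 0 on day 42. Scd3 had 6660 against 1624 CPM, 4087 against 623 CPM and 5298 against 821 CPM. Scd1 differed less, with 20757 against 13034 CPM, 18215 against 9374 CPM and 25246 against 12098 CPM. Other lipid genes varied in how far apart they lay. Elovl1, an elongase of very long chains, had 1243 against 119 CPM on day 0 and 212 against 65.5 CPM on day 7, and Hilpda, a lipid droplet protein, 550 against 127 CPM and 813 against 88.1 CPM. Closer levels were measured for 3 genes: Fasn had 1596 against 1394 CPM on day 0 and 1325 against 973 CPM on day 7, Plin2 1788 against 1616 CPM and 1581 against 1253 CPM, and Soat1 1811 against 1181 CPM, 1809 against 1762 CPM and, on day 42, 828 against 1317 CPM. Pnpla5, a lipase of the patatin family, had 227 against 2.60 CPM on day 0 and 220 against 2.33 CPM on day 7, and Hacl1, a peroxisomal enzyme that shortens 2-hydroxy fatty acids, 1369 against 254 CPM and 1501 against 186 CPM. Krt8, a simple epithelial keratin, was lower, with 29.9 against 337 CPM on day 0 and 8.45 against 61.1 CPM on day 7. The day 42 values rest on 2 cells, and on day 7 the cells with Elovl4 were deeper, with a median of 30104 UMIs against 8585.

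**Figure D4:**
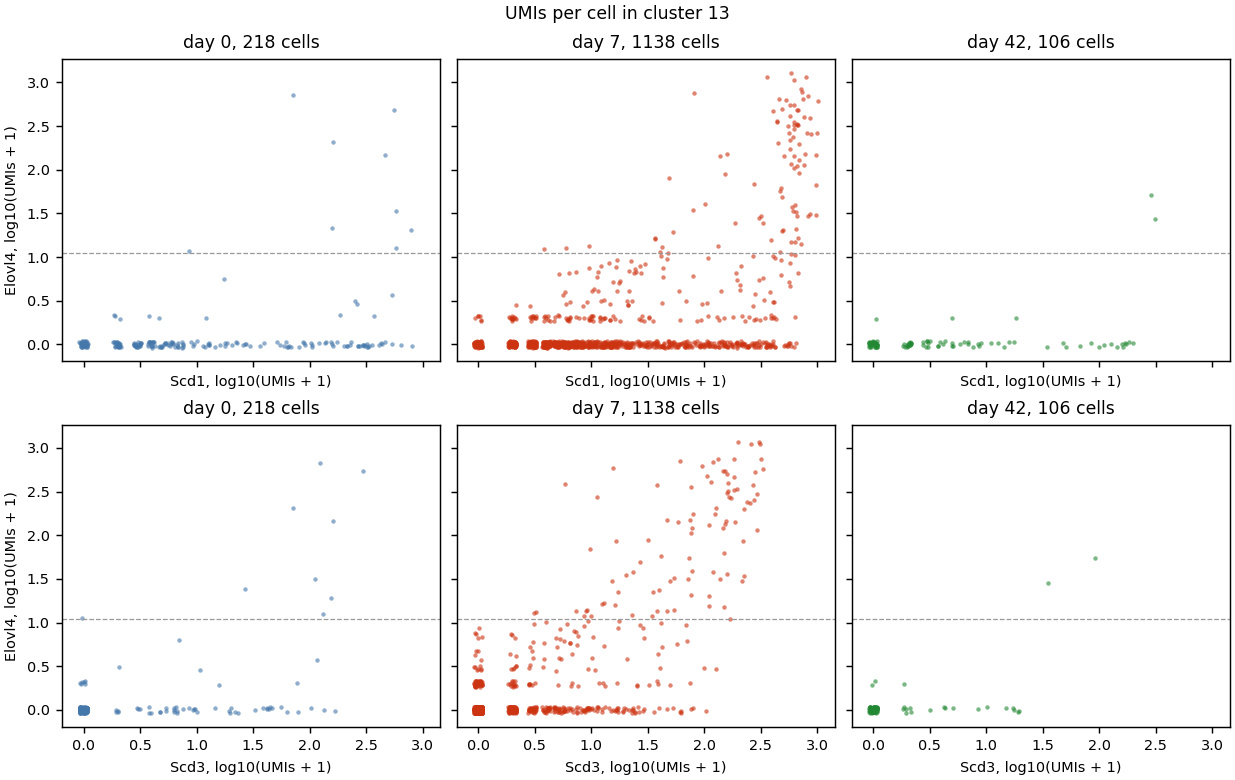
UMIs per cell of cluster 13, as log10(UMIs + 1), for Elovl4 (vertical) against Scd1 (top row) and Scd3 (bottom row), for day 0, day 7 and day 42; each point is a cell, with a small random shift so that equal counts do not hide each other. The dashed line is at 10 Elovl4 UMIs, reached by 9, 93 and 2 cells, and many cells with high Scd1 lie at 0 Elovl4 UMIs.

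Other genes of lipid synthesis were counted by list, with a gene taken as tested at 5 CPM or more in either library. Within cluster 13 on day 7 against day 0, where 0.786% of all genes tested were past 1, 1 of 16 tested genes of fatty acid synthesis was, the elongase Elovl6, which lengthens palmitate, with 476 CPM against 57.0 CPM (2.86); Elovl1 was lowest, with 73.0 against 143 CPM (-0.88). In the 5 to 9 range Elovl6 had 60.0, 937 and 0 CPM on the 3 days. Of 12 genes of wax ester, triglyceride and sterol ester synthesis, 1 was past 1, Awat1 with 153 against 53.2 CPM (1.37), and Dgat2, which completes triglycerides, had 87.0 against 149.5 CPM (-0.72). Of 7 lipid droplet genes, 1 was past 1, G0s2, an inhibitor of lipolysis, with 37.4 against 0.422 CPM; it had 38.9 CPM in the other keratinocytes of that library. Of 8 genes of lipolysis and fatty acid handling, 1 was past 1, the fatty acid transporter Cd36 with 42.1 against 12.7 CPM (1.20). None of 12 sphingolipid, 15 sterol and 14 regulator genes was past 1 or -1; Idi1, of isoprenoid synthesis, had 2247 against 1518 CPM (0.56) and Pparg, a nuclear receptor of fat and gland cells, 108 against 77.7 CPM (0.42). The medians of the 7 lists lay between -0.20 and 0.32, beside -0.01 over all genes tested.

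On day 42 against day 0 in cluster 13, where 1.32% of all genes tested were past -1, 4 of 15 fatty acid genes were, with Elovl6 at 7.42 against 57.0 CPM (-1.94) and Elovl1 at 35.2 against 143 CPM (-1.76) the lowest, while Acsl4, which activates arachidonate, had 224 against 246 CPM (-0.13). Among regulators, 1 of 14 was past -1, Insig1, a brake on transcription of sterol synthesis genes, with 81.6 against 209 CPM (-1.26). Srebf1, the driver of fatty acid genes, had 156 against 128 CPM (0.26). No wax ester, droplet, lipolysis, sphingolipid or sterol gene was past 1 or -1 there. Sterol genes had the lowest median, -0.67, with Cyp51, a demethylase of sterol synthesis, at -0.89. Over all keratinocytes on day 42 against day 0, where 1.99% of all genes tested were past -1 and 2.31% past 1, 3 of 18 fatty acid genes, 2 of 8 of the wax ester list, 1 of 6 droplet, 1 of 7 lipolysis, 1 of 15 sphingolipid, 2 of 15 sterol and 0 of 14 regulator genes were past -1. In the other direction, 1 gene of the 7 lists was past 1, the fatty acid list's Fads3, of the desaturase family, with 36.6 CPM against 8.18 CPM (1.36). With median-of-ratios size factors, 1 fatty acid gene and 1 sterol gene were past -1, and 1 lipid droplet gene was past 1. Plin2, a droplet coat protein, had 34.1 CPM on day 42 against 112 CPM on day 0 (-1.47), and Soat1 15.7 against 46.9 CPM (-1.15).

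Likeness was measured as Pearson's r of log2(CPM + 10) over the 29 clusters, all days summed, among 5151 genes with at least 100 CPM in a cluster. Scd3 was most like Panx3, a channel protein (0.98), and Awat1 (0.98), Far2 most like Serpina3j (0.99) and Clstn3 (0.99), Elovl3 most like the thioesterase Acot5 (0.97) and Cidea most like Adig, a gene named for adipose tissue (0.96). Elovl4 was most like Sdr16c5 (0.92) and Sdr16c6 (0.91), short-chain dehydrogenases, and Psapl1 (0.91). Scd1 and Fa2h were most like Lhpp (0.88 and 0.90), Cers4 most like Secisbp2l (0.86) and Mgll most like Rarres1 (0.82). The 3 genes most like Scd1 also held Iglc1 (0.83), and those most like Fa2h held Jchain (0.89), both genes of immunoglobulin chains. Iglc1 had 291 CPM and Jchain 514 CPM in cluster 13 with all days summed, and the source of these counts was not tested. All of these like genes had their highest level in cluster 13, and the 29 points share that cluster and the same libraries. Between the 9 genes themselves, r ran from 0.44 for Elovl4 and Cers4 to 0.98 for Scd3 and Far2.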

How the data were processed

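Counts of UMIs per gene and cell were deposited by the authors without normalization, in a matrix of 31053 genes and 37080 cells for the 3 libraries. The submitters' processing notes name Cell Ranger 3.0.2 and the mm10 build. The deposited cell table gives each cell its day, cluster and cell type name, a size factor, which is a ratio of the cell's total to 5283.43, the geometric mean of all totals, and map positions (a score per axis of the authors' map, not used here). How cells were filtered and clustered is not given in the sources used here. Doublet removal before deposit is not stated in the labels; Scrublet marked 433, 0 and 275 cells, and an alternative left out the 5% with the highest scores. Of the gene identifiers, 30934 matched GENCODE M21, whose GRCm38 coordinates are printed.

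UMIs were summed per cluster or cell type and library and given as CPM. Days were compared as log2((CPM + 10)/(CPM + 10)) for units with at least 50 cells; a gene was tested at 5 CPM or more in either library, and a log2 ratio of at least 1 or at most -1 was counted. With 1 pooled library per day no p-value was computed. A level from a zero count was read as up to 3 counts, and shares of cells have exact Clopper-Pearson 95% limits. Simulated counts with 200 changed genes were tested: in cluster 13 at day 42 against day 0, 91.5% of them came within 0.3 of the true log2 ratio over 9792 genes, and 100% in the other 3 comparisons. The 9 genes and the pathway and marker lists were chosen with earlier results of these data known. The text names all 9 genes, from each list up to 2 genes with the highest and 2 with the lowest log2 ratio among genes at 20 CPM or more, and the genes most like each of the 9. The alternatives were other scalings and weights of cells, a pseudocount of 1 CPM, no filter on genes, a filter on cells (1000 UMIs, 500 genes, at most 20% mitochondrial), thinning to 1000 UMIs, omission of the 10 cells richest in a gene's UMIs, and other weights of clusters. Sums, intervals and figures were made with scipy 1.17.1, numpy 2.4.6, scanpy 1.11.5, matplotlib 3.10.9 and pandas 2.3.3 under Python 3.11.15. Some listed genes are not reported here by name.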

Additional observations from a re-analysis of the deposited data

Results flagged for a closer look

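Mgll and Elovl4 were past a log2 ratio of 1 in one direction in some clusters or cell types and past it in the other direction in others, under the same pair of days. With 1 library per day, none of these differences was tested, and no cause is weighed.

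For Mgll at day 42 against day 0, the log2 ratio was 1.28 in cluster 1 and 1.25 in cluster 3, and it was -2.44 in endothelial cells, -1.36 in fibroblasts and -1.68 in T cells. The T cell value rests on 21 UMIs at day 0 and 1 at day 42. For Mgll at day 7 against day 0, the ratio was 2.75 in cluster 12, 1.14 in cluster 17, 1.08 in colonocytes, 1.54 in macrophages and 1.03 in cells of unknown type, and -2.05 in endothelial cells. In cluster 12 no Mgll UMI was counted at day 0 in 51 cells, which allows up to 19.0 CPM. At day 7 Mgll stood at 1.37% of its cluster 13 level in cluster 12, 1.06% in cluster 17, 0.50% in colonocytes, 0.63% in macrophages and 1.63% in unknown cells, beside 1.05% in neutrophils.

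For Elovl4 at day 7 against day 0, the ratio was 1.08 in cluster 13, 1.47 in lymphatic cells, 1.19 in T cells and 1.15 in unknown cells, and -1.16 in cluster 5 and -1.67 in cluster 12. In lymphatic cells no Elovl4 UMI was counted at day 0, which allows up to 14.7 CPM, and the day 7 level was 17.8 CPM from 14 UMIs, so a difference of this size was not detectable at this depth. In cluster 5 the levels were 29.9 CPM at day 0 from 87 cells and 7.84 CPM at day 7 from 162 cells. In cluster 12 the day 0 level of 108 CPM came from 51 cells. The T cell value rests on 2 UMIs at day 0 and 7 at day 7. Neutrophils stood at 0.81% of the cluster 13 level of Elovl4 at day 7, lymphatic cells at 1.18%, T cells at 1.41% and unknown cells, with 46.9 CPM, at 3.13%. The cluster 13 ratio was 0.67 after thinning to 1000 UMIs.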

How the results depend on the processing

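No paired analysis was possible because there is 1 pooled library per day. The count of 2 of the 9 genes past 1 at day 7 in all keratinocytes was 6 with median-of-ratios size factors, 1 with totals without mitochondrial and ribosomal protein genes, 7 with the mean of CPM per cell, 5 with a pseudocount of 1 CPM, 5 with the filter on cells, 7 after thinning, 9 without the 10 cells with most UMIs of the gene, and 0 both with equal weight to clusters and without cluster 13. The count of 9 past -1 at day 42 was 2 with equal weight and 1 without cluster 13. Within cluster 13, the count of 1 past 1 at day 7 was 2 without the 10 cells, and the count of 2 past -1 at day 42 was 1 with the filter on cells, 1 after thinning and 8 without the 10 cells. The count of 1 at day 7 was also 1 after thinning and with the mean of CPM per cell, but of another gene: Cidea at 1.17 and 1.02, with Elovl4 at 0.67 and 0.65. At day 42 Scd3 was at -0.99 with the filter and -0.67 after thinning, while Elovl4 stayed past -1. Omitting 10 cells takes a larger share of 106 or 218 cells than of 1138, so these counts bear on no difference between days; the gene not past -1 at day 42 was then Elovl4, with -0.75 from 0 against 6.82 CPM. Without cluster 13, levels below 1 CPM likewise keep 4 of the 9 ratios near 0 at day 42. With size factors, over all keratinocytes at day 42 against day 0, 1 fatty acid gene and 1 sterol gene were past -1 in place of 3 and 2, and 1 lipid droplet gene was past 1 in place of 0. The cause was not tested. The other 118 counts of genes stayed within 1.5 times their value. Of the log2 ratios and shares of single genes among the 9, 219 moved and 168 stayed within their counting interval. Scd1 and Scd3 in cluster 13 at day 7 turned above 0 after thinning and with the mean of CPM per cell. Without the 10 cells they were at 0.33 and 0.75, which likewise bears on no difference between days. In all keratinocytes at day 42 the 9 genes were below 0 under every setting run. Levels limited by counts were those at day 42 in cluster 13, from 106 cells and 83 Elovl4 UMIs, and those of cluster 12 at day 0, from 51 cells, where 3 counts amount to 19.0 CPM.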

Other observations

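Further genes outside the 9 differed along the cluster 13 cells. Retn, which encodes resistin and stood in the adipocyte list, had 0, 19.8 and 239 CPM on day 0 in cells with 0 or 1, 2 to 4, and 5 to 9 of the 9 genes detected, and on day 7 it went from 1.25 CPM in the lowest range to 668 CPM in the highest. The adipocyte genes Adipoq, Lep and Plin1 had at most 0.314 CPM in any range on any day. In the cells with 10 or more Elovl4 UMIs, Ly6g6c, a Ly6 family gene, had 1327 CPM on day 0 against 23.4 CPM in the other cells with 5 to 9 genes, and 903 against 31.2 CPM on day 7. The acid sphingomyelinase gene Smpd1, from the sphingolipid list, had 269 against 11.7 CPM on day 0 and 203 against 15.1 CPM on day 7. These genes were singled out after their values were seen, there is 1 library per day, median depth per cell also differed between the ranges, and no difference here was tested.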
